A study of Mus musculus with 12 samples.

Results

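The Hox genes are the homeobox genes of the a, b, c and d clusters, taken here by gene symbol from the annotation of a whole-transcript expression array (Affymetrix Mouse Gene 1.0 ST). The list held 38 genes, and 37 of them had a probe set of their own, out of 19938 genes measured in the same way. Hoxb8 was measured only by a probe set that the annotation gives to both Hoxb8 and Hoxb7, and it is described apart. Mouse embryonic stem (ES) cells received either pooled siRNAs to Kdm6a or negative control siRNAs, and 1 array of each was made per experiment. In the female line PGK12.1, which is mainly of 129 background with a PGK contribution, experiments 1 and 2 were double RNAi (100 pmol of siRNA for 48 h, then 400 pmol for 24 h, harvest at 72 h), and experiments 3 and 4 were single RNAi (100 pmol, harvest at 48 h). In the male line WD44, of BL6 background, both experiments were single RNAi. This gave 12 arrays, namely 4 with Kdm6a RNAi and 4 controls in PGK12.1, and 2 with Kdm6a RNAi and 2 controls in WD44. Both lines were grown with leukemia inhibitory factor on embryonic fibroblast feeders and were depleted of feeders on gelatin before transfection, in controls as in Kdm6a RNAi. Sex and strain cannot be told apart in this design, and neither can the dose, the time and the array scale of double and single RNAi. The labels do not say that experiments in a line came from separately derived cultures, so the p-values measure the spread between these experiments, and the number of arrays limits the precision.

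Hox proteins are transcription factors that bind DNA through a homeodomain and give cells their position along the body axis. Genes of one cluster are arranged so that low-numbered paralogues act in the hindbrain and neck, and high-numbered ones in the lumbar and tail region, the limb and the urogenital tract. In undifferentiated ES cells the clusters are classic bivalent chromatin, in which Polycomb repressive complex 2 deposits H3K27me3 over promoters that also carry H3K4me3, and the demethylase KDM6A (UTX), partner of KMT2C and KMT2D, is known for removing H3K27me3 at Hox genes during differentiation. The question put to these arrays was how the Hox genes responded when Kdm6a was depleted in undifferentiated female and male ES cells.

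The clusters also hold microRNA genes. Their sequences are shown because 2 of these loci, Mir196a-1 and Mir196b, were lower in all 4 experiments of PGK12.1, as were 9.6% of all genes. The loci of the miR-10 and miR-196 families all had mean signals below 0.1 of the array mean. In the mature sequences from RefSeq (GRCm38.p6), with the seed (bases 2 to 8) in capitals, the miR-10 pair shares one seed and the miR-196 pair shares another. Mir615, within Hoxc5, belongs to neither family and is not shown.
mmu-miR-10a-5p: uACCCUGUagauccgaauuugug
mmu-miR-10b-5p: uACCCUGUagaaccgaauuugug
mmu-miR-196a-5p: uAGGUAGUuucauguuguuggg
mmu-miR-196b-5p: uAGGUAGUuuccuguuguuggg
The gene Mir10a lies within the span of Hoxb3 on chromosome 11, between Hoxb5 and Hoxb4, and Mir10b lies within the spans of Hoxd3 and Hoxd4 on chromosome 2. The miR-196a sequence is encoded by 2 genes, Mir196a-1 on chromosome 11 between Hoxb13 and Hoxb9, and Mir196a-2 on chromosome 15 between Hoxc10 and Hoxc9. Mir196b lies on chromosome 6 between Hoxa9 and Hoxa10. The array probes read transcripts across the hairpin and not the mature microRNA.

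Depletion of the target was measured first. Kdm6a stood at 0.74, 0.728, 0.691 and 1.57 times the array mean in the 4 Kdm6a RNAi arrays of PGK12.1, against 1.81, 2.04, 1.84 and 3.05 in their controls. In WD44 it stood at 1.13 and 1.15 with Kdm6a RNAi, against 2.14 and 2.17 in the controls. The level used throughout is the linear value of a gene divided by the mean linear value of all probe sets on the array, and 0.1 of the array mean was taken as the minimum level for testing. The median log2 value of an array lay between 6.15 and 6.21 in PGK12.1 experiments 1 and 2, at 6.47 and 6.48 in experiment 3, and between 8.03 and 8.21 in experiment 4 and in WD44, so that only changes within an experiment were tested. The ES cell genes Pou5f1, Nanog and Sox2 had mean levels of 9.65, 9.90 and 7.77 times the array mean.

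Hox genes gave low signals on every array. The mean level over the 12 arrays ranged from 0.0582 to 0.331 of the array mean between Hox genes, and the median was 0.130, against 0.282 for all genes. Of the 37 Hox genes, 27 reached the minimum level and 10 did not, which is 27.03% below it, against 23.2% of all genes. The genes below it were Hoxa2, Hoxa3, Hoxa5, Hoxa9, Hoxc4, Hoxc5, Hoxc6, Hoxc10, Hoxc11 and Hoxd8. The minimum divided genes that hardly differ, since 8 Hox genes had mean levels between 0.09 and 0.11. Of the 37 genes, 11 were at or above 0.1 on all 12 arrays, whereas Hoxa2 and Hoxc11 were below it on every array. No Hox gene reached the array mean on any array. The 3 genes with a mean of at least 0.25 were Hoxa4 and Hoxb3, which act in the neck and hindbrain, and Hoxb1, which specifies a hindbrain segment.

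**Figure D1:**
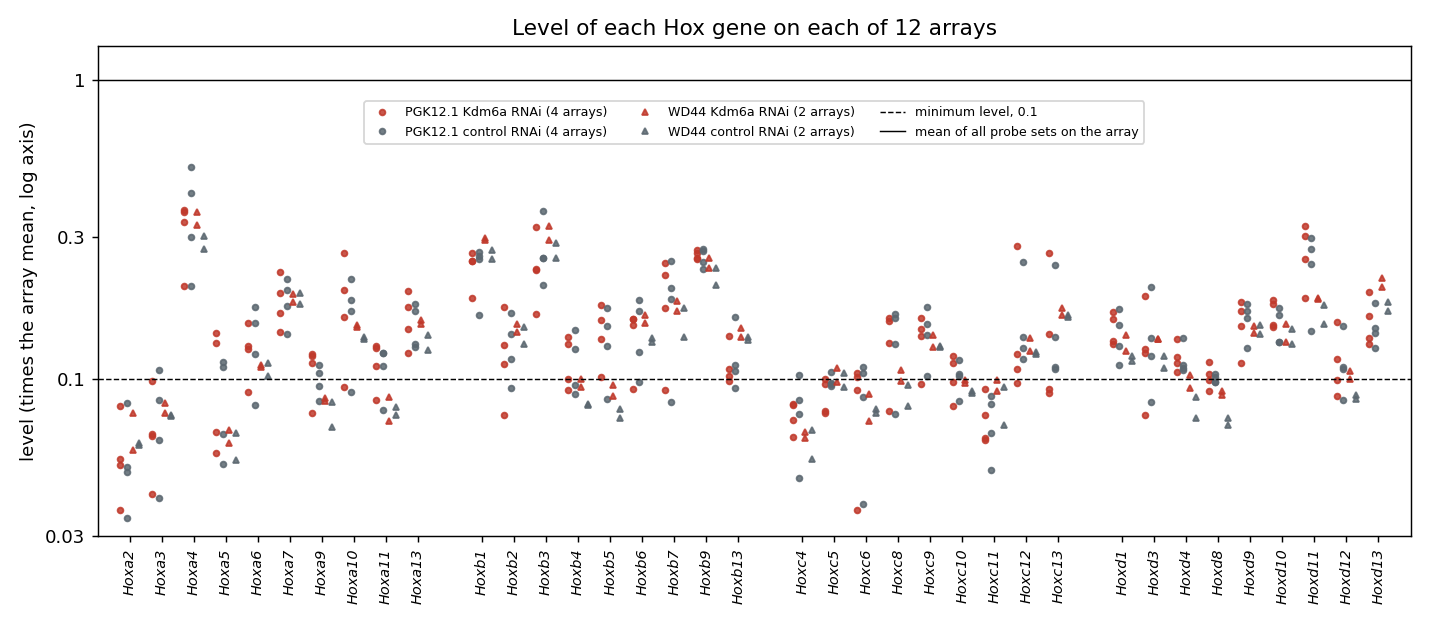
Level of 37 Hox genes (vertical axis, times the array mean, log axis) on each of 12 arrays, with Kdm6a RNAi in red and control RNAi in grey, circles for PGK12.1 and triangles for WD44. All points lie below the array mean (solid line), and many lie close to the minimum level of 0.1 (dashed line).

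The number of Hox genes at or above 0.1 differed more between the PGK12.1 experiments than between treatments. In PGK12.1 it was 32, 27, 15 and 30 with Kdm6a RNAi, against 33, 28, 18 and 30 in the controls of the same experiments. In WD44 it was 23 and 25 with Kdm6a RNAi, against 21 and 22 in the controls. The count was thus equal or lower with Kdm6a RNAi in each PGK12.1 experiment and higher with Kdm6a RNAi in both WD44 experiments, by 1 to 3 genes wherever it differed. The share of all genes at or above 0.1 was higher with Kdm6a RNAi in both WD44 experiments too, at 77.8% and 78.15% against 75.4% and 76.7% in the controls. In PGK12.1 that share was 75.2%, 75.01%, 68.1% and 80.8% with Kdm6a RNAi, against 76.97%, 74.55%, 67.9% and 80.8% in the controls.

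In PGK12.1, Hoxb3 was the only Hox gene that passed the test after Kdm6a RNAi, and it was lower. Its level was 0.234, 0.232, 0.166 and 0.323 of the array mean in the Kdm6a RNAi arrays of experiments 1 to 4, against 0.254, 0.255, 0.206 and 0.366 in the control arrays of the same experiments. Each Kdm6a RNAi array lay below its own control, while the 2 groups overlapped because the experiments differed more than the treatments. The log2 changes were -0.10, -0.15, -0.32 and -0.18, with a mean of -0.19 (SE 0.047, 95% interval -0.29 to -0.08, limma with Benjamini-Hochberg adjusted p = 0.0495), which is a level 12.2% lower. The call sat at the threshold of 0.05. It was lost when no minimum level was set (adjusted p = 0.0982), when any 1 experiment was left out (adjusted p from 0.0646 to 0.153), and in the paired t-test of the study's methods (adjusted p = 0.278). Over all genes tested, 5.81% were called in PGK12.1 (890 of 15309), of which 568 were higher (3.71%) and 322 lower (2.1%), against 1 of 27 Hox genes.

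The other Hox genes of PGK12.1 gave no call. At an unadjusted p under 0.05 there were 2 of 27 Hox genes, Hoxb3 and Hoxd11, against 22.6% of all genes tested, and the paired t-test gave 1, against 16% of all genes tested. Hoxd11, which patterns the forearm and the kidney, had levels of 0.324, 0.302, 0.186 and 0.253 with Kdm6a RNAi, against 0.296, 0.274, 0.145 and 0.243 in the controls. It was above its control in all 4 experiments, with log2 changes of 0.15, 0.13, 0.36 and 0.06. The mean change was 0.175 (SE 0.058) and did not pass the test (limma adjusted p = 0.111). The 95% intervals of all 37 Hox genes lay within a log2 change of 0.5 in either direction, the widest bounds being -0.34 and 0.36. Among the 10 genes below the minimum level, fitted without a minimum, the smallest p values were those of Hoxc5 (mean change -0.17, adjusted p = 0.22) and Hoxa5, a regulator of lung development (mean change 0.18, adjusted p = 0.274).

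**Figure D2:**
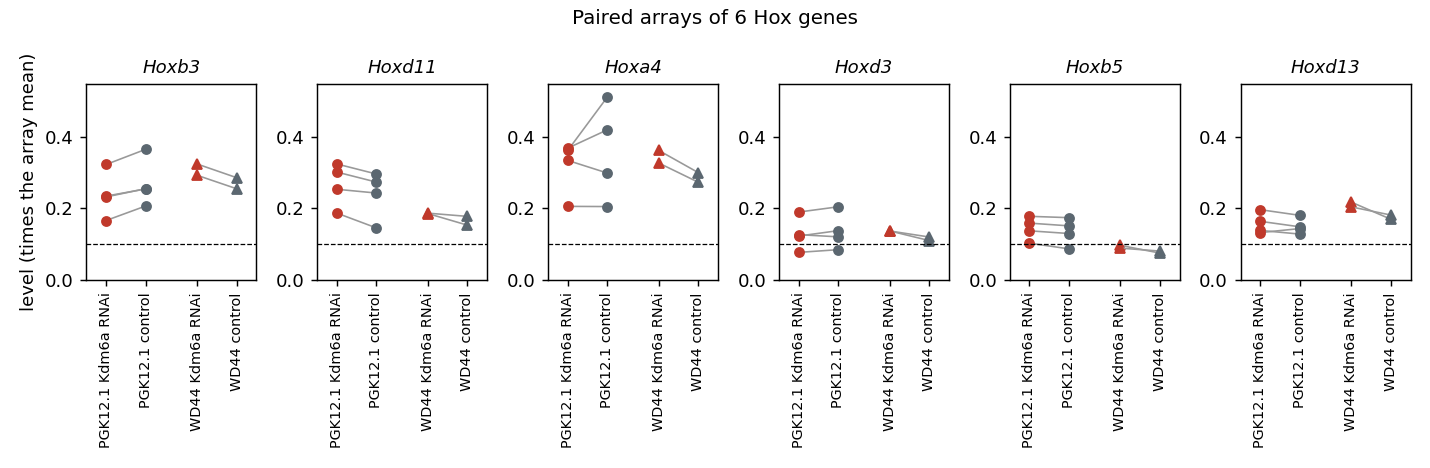
Level (times the array mean) of 6 Hox genes on paired arrays, Kdm6a RNAi in red to the left of control RNAi in grey, for 4 experiments in PGK12.1 (circles) and 2 in WD44 (triangles), with a line joining the arrays of 1 experiment and a dashed line at 0.1. Hoxb3 was lower with Kdm6a RNAi in each PGK12.1 pair and higher in each WD44 pair, and Hoxb5 and Hoxd11 were higher in all 6 pairs.

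Beside Hoxd11, the most positive mean changes in PGK12.1 among Hox genes at or above the minimum level were those of Hoxd10, Hoxb5 and Hoxa10. Hoxd10, of the lumbar and limb region, changed by -0.18, 0.16, 0.16 and 0.42 in experiments 1 to 4. Hoxb5, which helps set the position of the shoulder, changed by 0.05, 0.06, 0.24 and 0.08, and was thus above its control throughout. Hoxa10, needed for uterine development, changed by 0.25, -0.20, 0.05 and 0.28. Of these only Hoxb5 kept 1 direction, and its adjusted p was 0.265.

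At the other end, below Hoxb3, stood Hoxa4, Hoxc12 and Hoxb2. Hoxa4, which patterns neck vertebrae, changed by -0.48, -0.20, 0.00 and 0.16. Hoxc12, at the posterior end of its cluster, changed by -0.05, -0.13, -0.52 and 0.18. Hoxb2, a hindbrain gene, changed by -0.11, -0.06, -0.30 and 0.06. None of them kept 1 direction in all 4 experiments, and their adjusted p values were 0.415, 0.444 and 0.341. Over the 37 genes, 3 were higher in all 4 experiments (13.7% of all genes) and 1 was lower in all 4 (9.6% of all genes). Among genes between 0.05 and 0.35 of the array mean these shares were 7.03% higher and 9.84% lower.

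As a group the Hox genes of PGK12.1 lay near no change. The median over the 37 genes of the mean log2 change was 0.015, against 0.005 for all genes, and 21 of the 37 means were above 0, against 51.9% of all genes. Genes between 0.05 and 0.35 of the array mean had a median of -0.015, with 42.6% above 0, and relative to them the Hox median was 0.03. By experiment the median Hox change was -0.05, 0.04, 0.03 and 0.06. By cluster it was 0.06 for Hoxa, 0.02 for Hoxb, -0.03 for Hoxc and 0.025 for Hoxd. Anterior genes (paralogues 1 to 4) and central genes (5 to 8) had medians of 0.0025 and -0.00375, and posterior genes (9 to 13) had a median of 0.04. Single Hox genes did not keep a common order between experiments either. The correlation of log2 changes across the 37 genes ranged from -0.13 to 0.133 over the 6 pairs of PGK12.1 experiments, against 0.213 to 0.292 across all genes for the same pairs. The genes compared were not matched for level in these correlations. Genes are not independent replicates, and these values are given as a description.

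**Figure D3:**
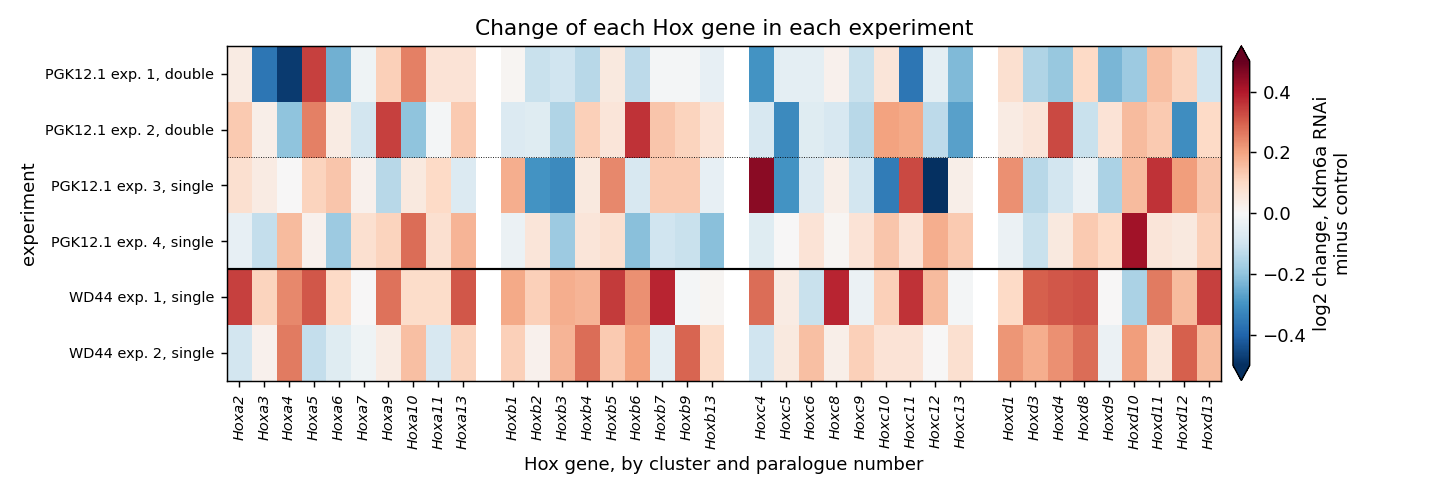
Log2 change (Kdm6a RNAi minus control, colour scale) of each of 37 Hox genes in the 4 PGK12.1 experiments (upper rows) and the 2 WD44 experiments (lower rows), with genes ordered by cluster and paralogue number. Red and blue are mixed in PGK12.1, and red prevails in WD44, where 23 of 37 genes were higher in both experiments.

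In WD44 the Hox genes leaned upward after Kdm6a RNAi, and none passed the test. Of the 37 mean changes, 35 were above 0, against 52% of all genes. In both experiments 23 of the 37 genes were higher (33.7% of all genes) and 0 were lower (29% of all genes). The exceptions in the mean were Hoxd9 and Hoxa7, at -0.015 and -0.01. In limma 0 of 27 Hox genes, and 0 of 15309 genes tested, had an adjusted p under 0.05, which is 0% called. The target itself, measured in 2 experiments, was not called in WD44 either (Kdm6a, log2 changes -0.94 and -0.92, limma adjusted p = 0.13). At an unadjusted p under 0.05 there were 8 of the 27 Hox genes, all higher, against 8.84% of all genes tested that were higher at that p. The 8 were Hoxd3, Hoxd13, Hoxb5, Hoxb4, Hoxa13, Hoxb3, Hoxd4 and Hoxc8, with adjusted p values from 0.195 to 0.266. The spread in this limma fit was estimated over both lines, so its p values do not measure the spread of WD44 alone. Hoxc8, for example, changed by 0.38 and 0.03 in the 2 WD44 experiments. The paired t-test gave 3 at an unadjusted p under 0.05, against 5.69% of all genes tested, and 0 after adjustment.

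Of the 5 largest mean changes in WD44 among Hox genes at or above the minimum level, 3 were in the d cluster (Hoxd4, Hoxd13 and Hoxd3). Hoxd4, an anterior gene of the neck region, stood at 0.0933 and 0.103 with Kdm6a RNAi, against 0.0743 and 0.0874 in the controls, a change of 0.31 and 0.23. Hoxd13, a posterior gene needed for digits and external genitalia, stood at 0.217 and 0.204 with Kdm6a RNAi, against 0.169 and 0.181 in the controls. Hoxa4 stood at 0.327 and 0.363 with Kdm6a RNAi, against 0.273 and 0.3003 in the controls. For each of these 3 genes both Kdm6a RNAi arrays lay above both control arrays, as they did for Hoxd3 and Hoxb5. These genes were taken for their large mean changes, and the share of all genes with this order was not counted.

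Hoxd3, which shapes the first neck vertebrae, stood at 0.137 and 0.136 with Kdm6a RNAi, against 0.11 and 0.12 in the controls. Its mean change was 0.24 (SE 0.070, 95% interval 0.08 to 0.40, limma adjusted p = 0.195), the smallest adjusted p of the 27 Hox genes tested in WD44. Hoxb5 stood at 0.0959 and 0.0882 with Kdm6a RNAi, against 0.0743 and 0.0799 in the controls, with the same mean change of 0.24 (adjusted p = 0.203). At the low end Hoxd9 changed by 0.00 and -0.03, Hoxa7 by 0.00 and -0.02, Hoxa11 by 0.09 and -0.08, and Hoxa6 by 0.10 and -0.06. Below the minimum level, Hoxd8 changed by 0.32 and 0.28 (mean 0.30, adjusted p = 0.26 in the fit without a minimum), the most positive mean of any Hox gene.

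The lean was broad over the clusters. The median mean change was 0.11 for Hoxa, 0.165 for Hoxb, 0.08 for Hoxc and 0.23 for Hoxd, and 5 of 10, 7 of 9, 4 of 9 and 7 of 9 of their genes were higher in both experiments. Anterior genes had a median of 0.16, with 9 of 11 higher in both experiments. Central genes had a median of 0.13, with 5 of 10 higher in both, and posterior genes had a median of 0.11, with 9 of 16. The differences between clusters and between positions were not tested, since genes of a cluster share arrays. The Hox changes of the 2 WD44 experiments did not follow each other gene by gene, with a correlation of -0.107 across the 37 genes, against 0.401 across all genes. The genes compared were not matched for level, and the Hox signals were low.

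The level of the genes moved with this result. The median Hox change was 0.17 in WD44 experiment 1 and 0.09 in experiment 2. Other genes between 0.05 and 0.35 of the array mean (8781 genes) had medians of 0.09 and 0.05 in the same experiments, and all genes had medians of 0.02 and -0.01. In that range of levels, 70.1% of genes had a mean change above 0 and 49.7% were higher in both experiments, against 35 and 23 of the 37 Hox genes. Mean changes of at least 0.2 were found for 12 of the 37 Hox genes, in 15.5% of genes in that range and in 8.85% of all genes, a limit chosen after the values were seen. The median Hox change over both experiments was 0.14, and 0.07 when taken relative to the genes of that range. The part of signal level in the lean of the Hox genes was not tested.

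**Figure D4:**
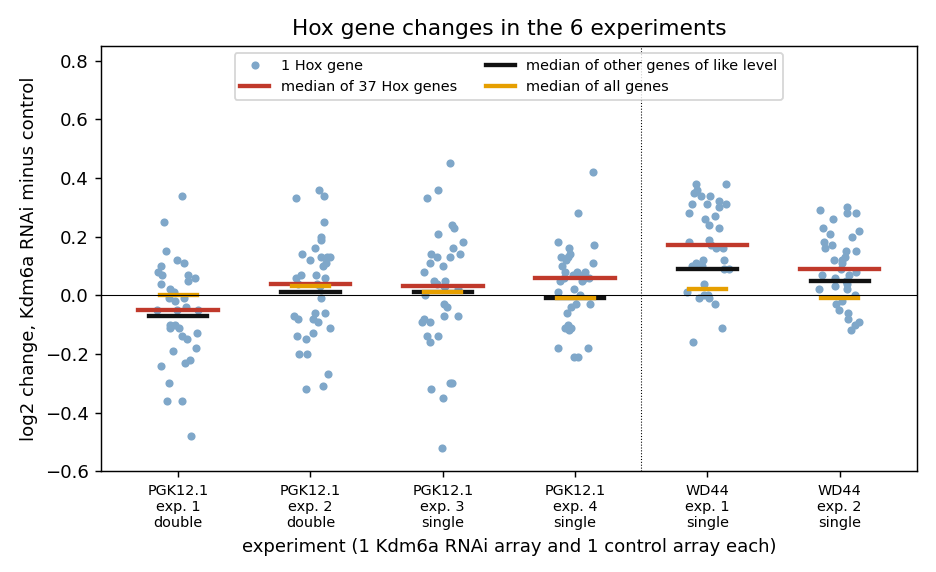
Log2 change (Kdm6a RNAi minus control) of single Hox genes (points) in each of 6 experiments, with bars for the median of the 37 Hox genes (red), of other genes between 0.05 and 0.35 of the array mean (black) and of all genes (orange). In WD44 the Hox medians of 0.17 and 0.09 lie above those of genes of like level (0.09 and 0.05), and in PGK12.1 the Hox medians lie between -0.05 and 0.06.

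The promoters of 3 genes of this set are shown because the genes had the smallest p values in WD44 among the tested Hox genes with an entry in the RefSeq promoter table (GRCm38.p6). The letters are the 250 bases before the annotated start, with CG in capitals, the dinucleotide whose density marks the CpG islands that Polycomb complexes occupy. The Hoxd3 stretch holds 12 CG, the Hoxd13 stretch 31 and the Hoxb4 stretch 14, and all 3 are on the plus strand.
Hoxd3, chr2:74711743-74711992: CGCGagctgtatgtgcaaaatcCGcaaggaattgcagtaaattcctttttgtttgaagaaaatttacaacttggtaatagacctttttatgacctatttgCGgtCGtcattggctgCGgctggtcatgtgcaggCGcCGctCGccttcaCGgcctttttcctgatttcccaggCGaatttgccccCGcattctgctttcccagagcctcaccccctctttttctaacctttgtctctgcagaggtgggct
Hoxd13, chr2:74667975-74668224: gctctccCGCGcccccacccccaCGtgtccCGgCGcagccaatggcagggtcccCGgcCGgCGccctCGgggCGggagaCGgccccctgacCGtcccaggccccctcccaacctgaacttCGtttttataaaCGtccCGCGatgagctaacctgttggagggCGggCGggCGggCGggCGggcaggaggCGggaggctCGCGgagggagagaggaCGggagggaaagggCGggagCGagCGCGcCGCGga
Hoxb4, chr11:96318017-96318266: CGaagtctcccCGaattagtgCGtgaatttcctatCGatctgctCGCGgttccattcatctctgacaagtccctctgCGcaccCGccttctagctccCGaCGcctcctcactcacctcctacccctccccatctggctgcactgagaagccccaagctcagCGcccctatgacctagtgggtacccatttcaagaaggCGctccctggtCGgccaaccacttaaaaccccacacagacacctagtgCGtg
Promoter entries were found for 22 listed Hox genes (24 starts), Hoxb3 not among them. Counted over 250 bases before to 50 after the start, the median Hox promoter held 14.5 CG and 57.7% G or C, against 7 and 52.7% over 32851 promoters of the same length. At least 10 CG were found in 17 of 24 Hox promoters (70.8%), against 43.5% of all promoters. The letters AGGTCA, a half-site of retinoic acid receptors, were found on either strand in 7 of 24 Hox promoters (29.2%), Hoxd3 and Hoxb4 included, against 16.3% of all. TTTATG, a core bound by caudal-type proteins, was found in 5 (20.8%, against 11.9%), TATAAA in 4 (16.7%, against 13.6%) and TAATTA, a homeodomain core, in 2 (8.33%, against 5.29%). These matches describe letters only.

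The difference in response between the lines was tested directly. For PGK12.1 minus WD44, 0 of 27 Hox genes and 0 of 15309 genes tested (0%) passed limma's adjusted threshold. At an unadjusted p under 0.05 there were 4 Hox genes, all with the lower change in PGK12.1, against 10% of all genes tested in that direction. Hoxb3 was first, with a difference of -0.36 (SE 0.082, 95% interval -0.55 to -0.18, adjusted p = 0.0912). Its level in WD44 was 0.293 and 0.325 with Kdm6a RNAi, against 0.255 and 0.286 in the controls, so that it was higher in both WD44 experiments and lower in all 4 of PGK12.1. It was the only Hox gene with such opposite directions, which 7.93% of all genes had.

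The other 3 genes were Hoxd3, Hoxa4 and Hoxb4. Hoxd3 differed by -0.325 (SE 0.086, adjusted p = 0.101). In PGK12.1 its level was 0.122, 0.126, 0.0762 and 0.189 with Kdm6a RNAi, against 0.137, 0.120, 0.0838 and 0.204 in the controls, which is lower in 3 of 4 experiments. Hoxa4 differed by -0.38 (SE 0.15, adjusted p = 0.189), and Hoxb4, a gene used to expand blood stem cells in culture, by -0.20 (SE 0.090, adjusted p = 0.235). All 4 are anterior genes, as are 8 of the 27 Hox genes tested. Below the minimum level, the central gene Hoxd8 also differed, by -0.28 (SE 0.092, limma adjusted p = 0.2005 in the fit without a minimum). The place of these genes in the clusters was not tested. The PGK12.1 effect includes double RNAi, which WD44 did not receive. Array scale differed between the lines as well. Kdm6a changed by -1.27, -1.50, -1.42 and -0.96 in PGK12.1, against -0.94 and -0.92 in WD44. PGK12.1 experiment 4 was single RNAi, with array medians like those of WD44. There Hoxb3 and Hoxd3 changed by -0.18 and -0.11, and Hoxa4 and Hoxb4 by 0.16 and 0.06, upward as in WD44. With single RNAi alone in both lines the differences were -0.425 for Hoxb3 and -0.365 for Hoxd3 (adjusted p = 0.187 for both), and -0.17 for both Hoxa4 (adjusted p = 0.384) and Hoxb4 (adjusted p = 0.357). Taken over all 37 genes, the 95% intervals of the difference reached as far as -0.72 and 0.46.

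**Figure D5:**
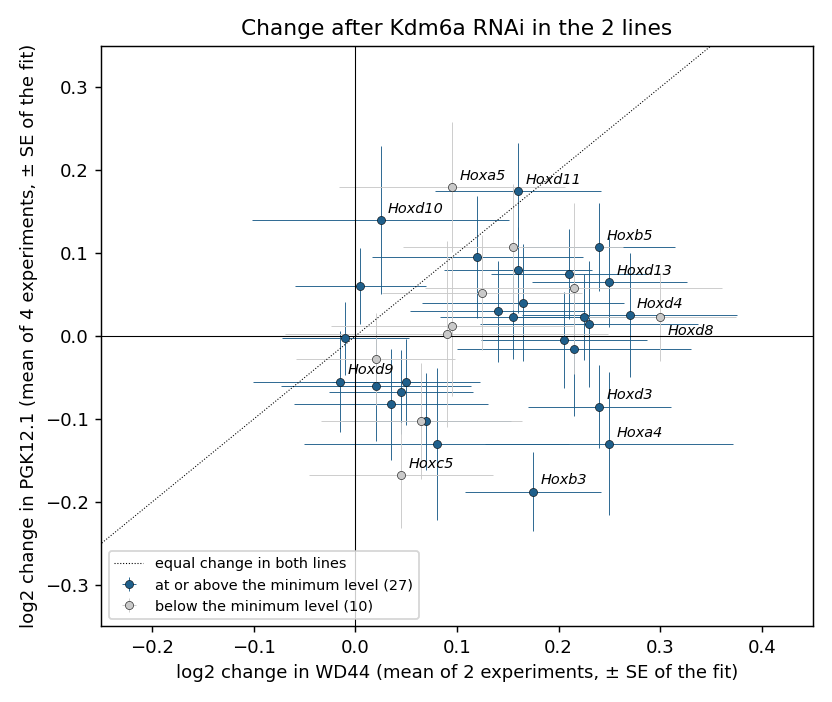
Mean log2 change of each Hox gene in PGK12.1 (vertical axis, 4 experiments) against that in WD44 (horizontal axis, 2 experiments), with bars of 1 SE of the limma fit, dark points at or above the minimum level and light points below it. Most points lie right of 0 on the WD44 axis and about 0 on the PGK12.1 axis, and Hoxb3 lies lowest, at -0.19 in PGK12.1 and 0.175 in WD44.

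Across both lines, 2 of 37 Hox genes changed in 1 direction in all 6 experiments, against 6.67% of all genes. They were Hoxb5 and Hoxd11, both higher throughout. Hoxb5 changed by 0.05, 0.06, 0.24 and 0.08 in PGK12.1 and by 0.35 and 0.13 in WD44. Hoxd11 changed by 0.26 and 0.06 in WD44, beside the PGK12.1 values given above. Neither passed the test in either line.

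Double and single RNAi were compared within PGK12.1, where dose, time and array scale differed together. The array median was 6.15 to 6.21 with double RNAi, against 6.47 to 8.21 with single RNAi. For the change with double RNAi minus the change with single RNAi, 0 of 27 Hox genes and 0 of 15309 genes tested (0%) passed limma's adjusted threshold, and 2 Hox genes had an unadjusted p under 0.05, against 8.88% of all genes. Hoxa4 changed by -0.48 and -0.20 with double RNAi, against 0.00 and 0.16 with single RNAi, a difference of -0.42 (SE 0.11, adjusted p = 0.503). Hoxc13, a gene of hair and nail, changed by -0.22 and -0.27 with double RNAi, against 0.03 and 0.13 with single RNAi, a difference of -0.325 (SE 0.086, adjusted p = 0.503). In both the ranges of the 2 treatments did not overlap, which also held for other Hox genes, Hoxa5 and Hoxb5 among them. The share of all genes with such ranges was not counted. Hoxb3 was lower under either treatment, changing by -0.10 and -0.15 with double RNAi against -0.32 and -0.18 with single RNAi.

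The probe set shared by Hoxb8 and Hoxb7 lay between 0.0530 and 0.0920 of the array mean. It changed by -0.26, -0.27, -0.31 and 0.01 in PGK12.1 and by 0.24 and 0.06 in WD44, and since it reads both genes it was left out of the tests. Hoxb7 by its own probe set changed by -0.01, 0.14, 0.13 and -0.10 in PGK12.1 and by 0.38 and -0.05 in WD44. The microRNA loci were all below the minimum level except Mir615. Mir196a-1, at a mean of 0.0645 of the array mean, changed by -0.25, -0.29, -0.35 and -0.30 in PGK12.1 and by -0.01 and -0.25 in WD44. In the limma fit of all 19938 genes without a minimum its mean change in PGK12.1 was -0.30 (SE 0.052, adjusted p = 0.0274), in a fit that called 452 genes (2.27%) and no Hox gene. Without any 1 PGK12.1 experiment its adjusted p was 0.0798 to 0.103, and it was singled out after its values were seen. Mir196b changed by -0.11, -0.13, -0.04 and -0.28 in PGK12.1 (mean -0.14, adjusted p = 0.212 in the same fit) and by -0.04 and 0.07 in WD44. Mir196a-2, which encodes the same mature sequence as Mir196a-1, changed by -0.07, 0.23, 0.30 and -0.06 in PGK12.1. Mir10a and Mir10b stood at 0.0134 and 0.0138 of the array mean.

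On the control arrays, many Hox genes ranked higher in PGK12.1 than in WD44. The percentile of a gene among all probe sets of its array was used, since the array scales differ. The median Hox percentile was 40.7, 37.9, 38.7 and 37.2 on the 4 PGK12.1 controls, against 32.8 and 33.0 on the 2 WD44 controls. Of the 37 genes, 20 ranked higher on all 4 PGK12.1 controls than on both WD44 controls (31.2% of all genes, and 36.9% of genes between 0.05 and 0.35 of the array mean). None ranked lower on all 4 (19.6% of all genes). The widest gap was that of Hoxb5, at percentiles 46.0, 43.8, 35.03 and 32.96 in PGK12.1 against 22.4 and 23.1 in WD44. With Kdm6a RNAi the median Hox percentile of WD44 was 35.3 and 35.6. The array scale moved with the line as well, since PGK12.1 experiments 1 to 3 had lower array medians than WD44. The control of PGK12.1 experiment 4, with an array median like those of WD44, had a median Hox percentile of 37.2. Sex and strain cannot be told apart in this comparison, and, in a bulk extract, neither can more cells that express a Hox gene and more RNA per cell.

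Regulators of the Hox genes were examined by lists. None of 11 subunits and partners of PRC2, the H3K27 methyltransferase complex, was called in PGK12.1, where their mean changes lay between -0.15 and 0.07. In PRC1, the other Polycomb repressive complex, 2 of 18 tested genes were called and both rose, against 3.71% of all genes that rose. They were Yaf2 (mean log2 change 0.29, SE 0.050, limma adjusted p = 0.0104) and Kdm2b (0.205, SE 0.041, adjusted p = 0.0201). None of 14 genes of the KMT2 and SET1 complexes, which write H3K4 methylation, was called. Of the 2 H3K27 demethylases tested, Kdm6a itself fell by 1.29 on the log2 scale, and Kdm6b, a paralogue with the same activity, changed by 0.18, 0.16, 0.01 and 0.04 (adjusted p = 0.245). In WD44 no gene of these lists was called, Kdm6a included.

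Among 8 tested homeodomain cofactors of the HOX proteins, 1 rose and 1 fell in PGK12.1, where 5.81% of all genes were called. Pbx3, whose product binds DNA together with HOX proteins, rose by 0.26 (SE 0.065, adjusted p = 0.0466). Meis2, of a second cofactor family, changed by -0.40, -0.11, -0.20 and -0.63, with a mean of -0.335 (SE 0.076, adjusted p = 0.0323), and by -0.19 and -0.24 in WD44, where it was not called. Of the caudal-type genes that act upstream of Hox genes, Cdx1 changed by -0.09, -0.17, -0.08 and -0.03 (adjusted p = 0.279) and Cdx2 had a mean of -0.02 (adjusted p = 0.892). Of 17 retinoic acid genes, Crabp2, a binding protein for retinoic acid, fell (mean -0.205, adjusted p = 0.0359). Of 11 tested genes beside or within the clusters, Skap2, next to the Hoxa cluster, rose by 0.21 (SE 0.051, adjusted p = 0.0397). In WD44, 0 genes of these lists were called.

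Feeder fibroblasts express Hox genes, so fibroblast markers were read on the same arrays. Of 16 markers 14 were at or above the minimum level, with Lum and Postn below it. Loxl1 alone was called in PGK12.1 (mean 0.25, limma adjusted p = 0.0234), where 3.71% of all genes tested were called higher. The summed level of the 16 markers was 7.09, 7.08, 5.66 and 11.8 times the array mean with Kdm6a RNAi in PGK12.1, against 7.26, 7.23, 5.80 and 12.4 in the controls. In WD44 it was 11.4 and 12.2 with Kdm6a RNAi, against 11.5 and 11.4 in the controls. Fn1, the gene of fibronectin, made up most of this sum. Leaving it out was not among the planned steps. Without it, the sum of the other 15 markers was 3.48 and 3.62 in WD44 with Kdm6a RNAi, against 3.19 and 3.35 in the controls, and 2.99, 2.91, 2.42 and 3.48 in PGK12.1 with Kdm6a RNAi, against 3.1, 2.86, 2.35 and 3.39 in the controls. The 14 markers at or above the minimum level had median changes of 0.13 in WD44 (from -0.19 to 0.27) and -0.03 in PGK12.1 (from -0.17 to 0.25). The Hox median in WD44 was 0.14 over all 37 genes and 0.16 over the 27 at or above the minimum level. In both WD44 experiments 11 of the 16 markers were higher and 1 was lower, and the others kept no common direction. Of all genes 33.7% were higher and 29% lower in both, and 49.7% of genes between 0.05 and 0.35 of the array mean were higher. In all 4 PGK12.1 experiments 2 markers were higher and 4 lower (13.7% and 9.6% of all genes). An upward lean in WD44 was shared by the markers, the Hox genes and other genes between 0.05 and 0.35 of the array mean (median change 0.07). The 8 neuroectoderm markers had a median change of 0.20 in WD44, and their summed level was 3.35 and 3.22 with Kdm6a RNAi, against 2.99 and 3.02 in the controls. Early mesoderm and endoderm markers had medians of 0.075 and 0.04 in WD44. The 8 ES cell markers had a median of -0.06 there and summed to 40.1 and 37.7 with Kdm6a RNAi, against 40.7 and 38.5 in the controls. No marker of any list was called in WD44, and the part of other cell types in the Hox changes was not tested.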

How the data were processed

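The deposited table holds log2 expression values, which the authors made from Affymetrix Mouse Gene 1.0 ST arrays with Expression Console and RMA (their versions and the sets of arrays normalized jointly were not stated in the sources used). Of 35556 probe sets, 21789 had 1 gene symbol in the platform annotation, 1621 had several and 12146 had none listed. Symbols were updated by Entrez ID through RefSeq (GRCm38.p6, 19919 of 19938 genes found), and probe sets of a gene were averaged. Genes with a mean of at least 0.1 of the array mean (15309) were tested in limma 3.58.1 (R 4.3.3) on all 12 arrays, with experiment as a block and 1 effect of Kdm6a RNAi per line, and Benjamini-Hochberg adjustment over all genes tested at 0.05. A second design split double and single RNAi. The block follows the experiment numbers in the labels. Control and Kdm6a RNAi arrays of the same number deviated together from their group means (correlations 0.828 to 0.972 in PGK12.1, 0.265 in WD44). The main design had 4 residual and 5.66 prior degrees of freedom. The script was tested on simulated data.

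The Hox genes, gene lists and tests were chosen with earlier results of these data known. Values in every experiment were given for Hox genes called in any contrast, the 4 most positive and 4 most negative means of each line at or above the minimum (5 where values tied), and those of 1 sign in all experiments. Alternatives were other minimum levels, single probe sets, median centring, quantile normalization, trend and robust estimation, no block, leaving out each experiment, double or single RNAi only, and the paired t-test of the methods. Figures were drawn with matplotlib.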

Additional observations from a re-analysis of the deposited data

Results flagged for a closer look

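Hoxb3 was lower in all 4 PGK12.1 experiments and higher in both WD44 experiments, with a difference in mean log2 change of -0.36 between PGK12.1 and WD44. That difference was tested by limma and did not pass (adjusted p = 0.0912). In 3 of 37 Hox genes 1 of the 4 PGK12.1 experiments stood far from the others, by the gap to its neighbour as a share of the range. Chance gives this in about 1 in 20 groups. Hoxb5 changed by 0.24 in experiment 3, against 0.05 to 0.08 in the others (share 0.842). Hoxc6, below the minimum level, changed by 0.07 in experiment 4, against -0.07 to -0.05 (share 0.857). Hoxd13 changed by -0.10 in experiment 1, against 0.10 to 0.14 (share 0.833).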

How the results depend on the processing

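The count of 1 Hox gene called in PGK12.1 (Hoxb3) became 0 without a minimum level, with every probe set by itself, with arrays centred on their median, with no replicate block, with double or single RNAi only, with the paired t-test, and in each fit that left out 1 experiment (0 to 0). It was 1 with a minimum level of 0.25, quantile normalization, or trend and robust estimation. With no block its adjusted p was 1, as the arrays of different experiments differ in scale. Centring, single probe sets and no minimum gave 0.0663, 0.0518 and 0.0982, and double only, single only and the paired t-test gave 0.262, 0.134 and 0.278. Its direction was the same in all 16 alternatives. For PGK12.1 minus WD44 the count of 0 became 1 (Hoxb3, adjusted p = 0.0431) with a minimum level of 0.25, where 3 Hox genes and 10539 genes were tested. The counts of 0 for WD44 and for double minus single stayed 0 in every alternative that was run. Centring gave 13 Hox genes at an unadjusted p under 0.05 in WD44, against 8, and leaving out WD44 experiment 1 or 2 gave 2 or 6, with 1 experiment then assumed to vary like those of PGK12.1. The 27 Hox genes at or above the minimum became 11 when every array had to reach it, 3 at a minimum of 0.25, and 37 at a minimum of 0.25 of the array median. The median Hox change in WD44 was 0.14, from 0.09 to 0.17 when 1 experiment was left out, and 0.07 relative to genes between 0.05 and 0.35 of the array mean, an alternative chosen after seeing the data. In PGK12.1 the median lay between -0.0033 and 0.0233 when 1 experiment was left out. Calls over all genes in PGK12.1 numbered 890, and 0 to 1647 in the alternatives. In WD44 they numbered 0, and 0 to 12. For PGK12.1 minus WD44 they numbered 0, and 0 to 554. Levels close to 0.1 of the array mean limit what any of these settings can resolve.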
